A study of Mus musculus with 4 samples.

Results

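The genes described here encode SR proteins, heterogeneous nuclear ribonucleoproteins (hnRNPs) and core spliceosome factors, the proteins that find, join and regulate exons. They were chosen by symbol alone, as all genes named *Srsf*, *Hnrnp*, *Sf3a*, *Sf3b* or *Prpf* with a number or letter, plus *Pnn*, *Son*, *Srrm1*, *Srrm2*, *Rbm5*, *Rbm17*, *Rbm22*, *Rbm25* and *Rbm39*. This gave 57 of the 19938 genes that the array's annotation names, read by 71 of 35556 probe sets. They comprise 14 SR and SR-related genes, 17 hnRNP genes and 26 core genes (3 *Sf3a*, 6 *Sf3b*, 12 *Prpf* and 5 *Rbm* genes). *Hnrnpa1*, *Hnrnpa3* and *Hnrnph3* were not included, since the probe sets that hold these symbols (5, 9 and 1 of them) carry the symbols of several genes.

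RNA came from whole cochleas of mouse embryos at embryonic day (E) 15 and was measured on 4 Affymetrix Mouse Gene ST arrays, 2 of *Meis2* flox/flox; *Pax2* Cre/+ mutants (replicates 1 and 2) and 2 of wild-type embryos (replicates 2 and 3). *Meis2* encodes a homeodomain transcription factor. The *Pax2*-Cre driver recombines in the otic lineage from the placode stage on, so neighboring tissue in the dissected cochlea need not carry the deletion. The sources used here do not say whether embryos were pooled for an array or whether the arrays are separate litters, so the p-values measure only the spread between these arrays, which may be technical. Wild-type replicate 3 carried both *Xist* and Y-linked signal, as a pool of embryos of both sexes would (values given further on). The *Meis2* probe set had log2 signals of 9.61 and 9.80 on the mutant arrays and 9.64 and 9.38 on the wild-type arrays. It may read exons outside the deleted segment and therefore does not check the genotypes.

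Splicing proceeds in steps, and the genes fall into classes by the step they serve. SR proteins carry a domain rich in arginine and serine, bind exonic enhancers and recruit the splicing machinery, and many hnRNPs bind nascent RNA and oppose or redirect that choice. The SF3a and SF3b complexes belong to the U2 small nuclear ribonucleoprotein (snRNP), which recognizes the branch site, and many Prpf proteins act in the U4/U6.U5 tri-snRNP or in later activation and catalysis, while others are associated with the U1 snRNP. In the developing cochlea, cell-type-specific splicing regulators are known to be required for hair cell development and hearing, whereas the factors described here are used by nearly all cells.

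Most of these genes had lower signals in mutant cochleas. Signals are log2 values from RMA, which corrects the background and normalizes the arrays. On the gene's brightest probe set, 33 of the 57 genes (57.9%) were lower in mutants and 5 (8.77%) were higher at an adjusted p under 0.05 (limma, Benjamini-Hochberg over all 35556 probe sets), while 19 did not pass the test. Among all 19938 genes, 16.2% were lower and 24.2% were higher. All 57 genes lay among the 50% of genes with the highest mean signal on these arrays (the brightest 50%), in which 26.6% were lower and 26.4% were higher. The median difference (mutant minus wild type, log2 scale, used for all differences below) was -0.47 over the 57 genes and ran from -1.78 to 0.89, against a median of 0.01 over the brightest 50% and 0.13 over all genes.

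**Figure D1:**
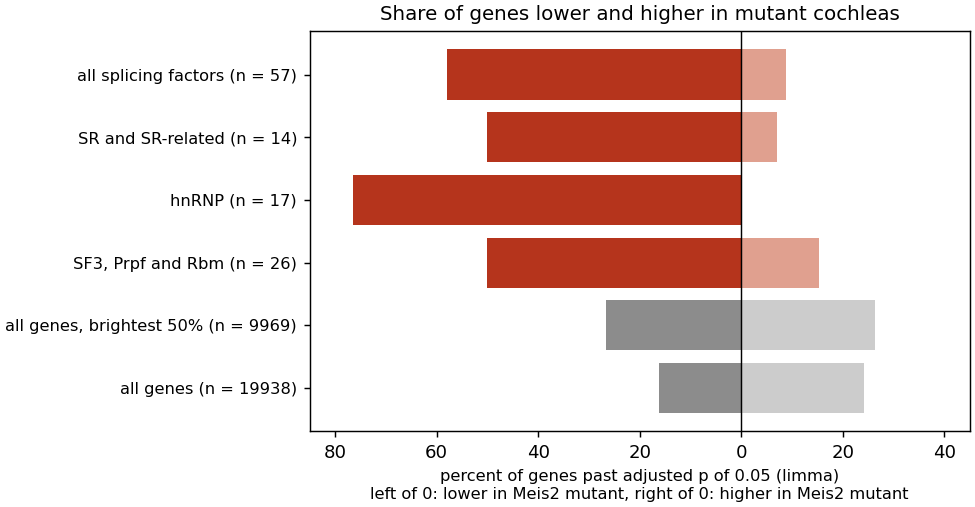
Share of genes that were lower (bars to the left of 0) or higher (bars to the right of 0) in *Meis2* mutant than in wild-type cochleas at an adjusted p under 0.05, in percent, for all 57 genes, for the 3 classes and for the brightest 50% of all genes and for all genes of the array. In all 57 splicing genes 57.9% were lower and 8.77% higher, against 26.6% and 26.4% in the brightest 50%.

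The arrays of the genotypes did not overlap for most genes. Both mutant arrays lay below both wild-type arrays for 40 of the 57 genes and above both for 12, while in the brightest 50% of all genes these shares were 41.2% and 42.2%, and among all genes 26.6% and 53.8%. Each of the 4 pairings of a mutant with a wild-type array gave lower mutant signals for 42 to 44 of the 57. A fall of at least 2-fold past the test was found in 15 of the 57 genes, against 6.26% of the brightest 50% and 3.83% of all genes. No gene of the 57 was 2-fold higher past the test (limma), whereas 2.11% of the brightest 50% and 1.13% of all genes were. Without the limit on fold, the count of higher genes was 5 by limma, 7 at an unadjusted p under 0.05 and 11 by significance analysis of microarrays (SAM), which called 51.6% of all probe sets higher and 19.4% lower. SAM called 35 of the 57 genes lower.

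Of the 38 calls, 22 held in limma fits that left out any 1 array, and all 38 kept their sign. Calls over all probe sets of the array were also fewer in each of these fits, in both directions. Without mutant replicate 1, the calls lost were those of *Hnrnpab*, *Hnrnpdl*, *Hnrnpf*, *Hnrnpul2*, *Prpf3*, *Rbm25*, *Rbm5*, *Sf3a1*, *Sf3a2*, *Sf3b2*, *Sf3b3*, *Son* and *Srsf3*. Without mutant replicate 2, those of the same genes except *Hnrnpul2* were lost and, in addition, those of *Hnrnpll*, *Sf3a3* and *Srrm1*. Without wild-type replicate 2 the calls of *Rbm25*, *Sf3a2* and *Sf3b2* were lost, and without wild-type replicate 3 those of *Hnrnpab*, *Sf3a1* and *Sf3b2*.

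**Figure D2:**
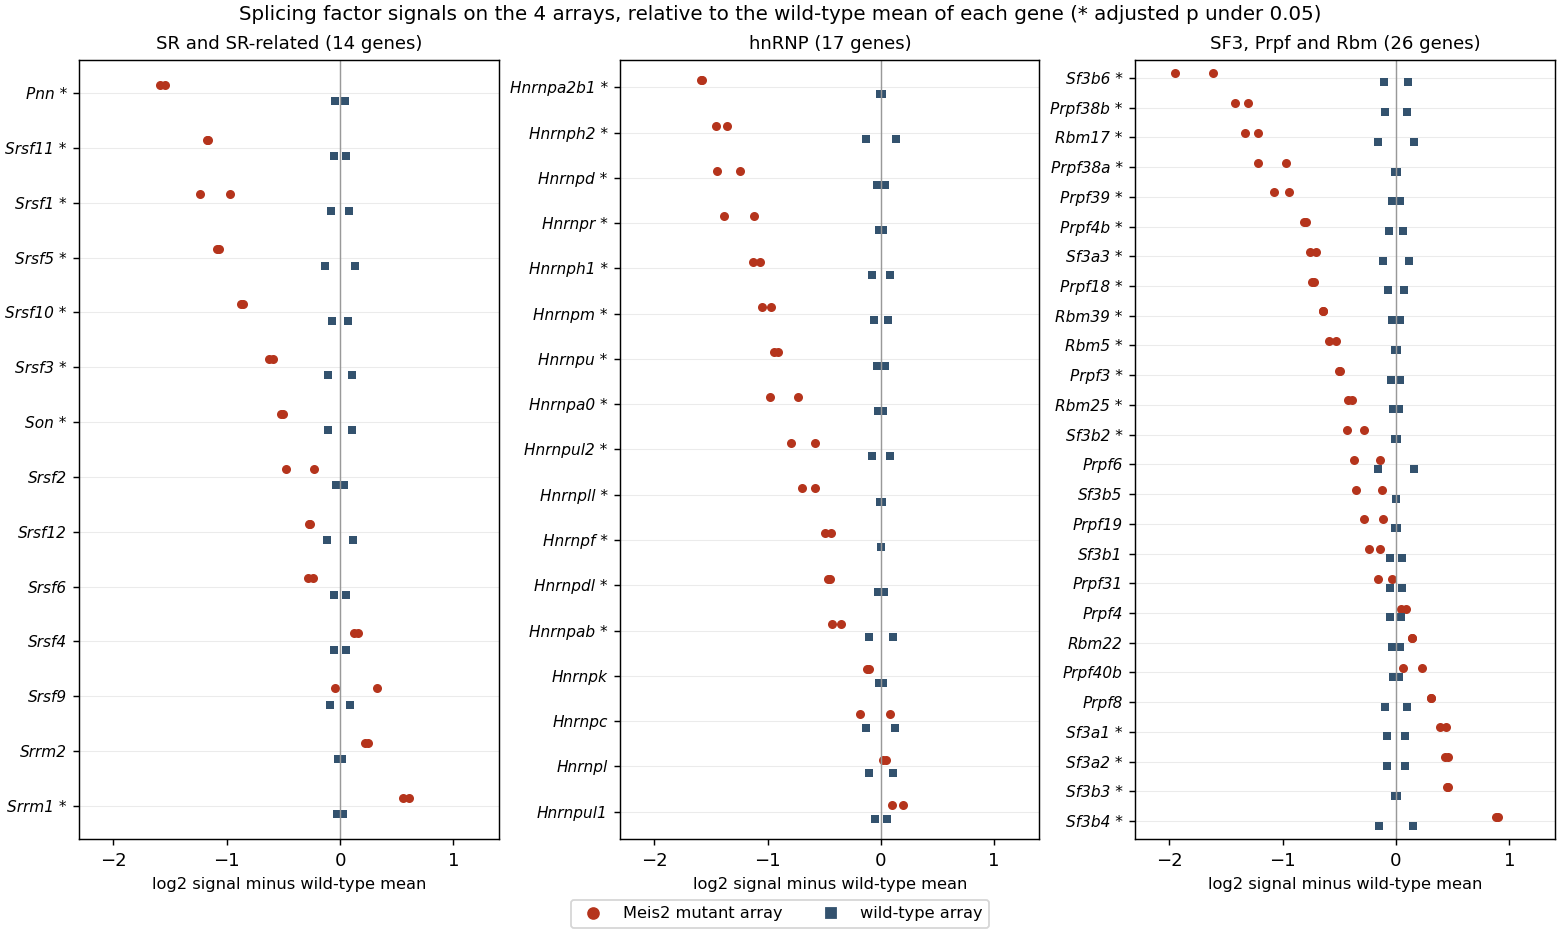
Log2 signal of each of the 57 genes on each of the 4 arrays, minus the gene's wild-type mean, with 1 point per array (circles, *Meis2* mutant; squares, wild type) and 1 panel per class. An asterisk marks an adjusted p under 0.05; the hnRNP panel holds 13 genes that were lower and none that was higher, and the SF3 genes lie at both ends of the third panel.

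Of the 14 SR and SR-related genes, 7 were lower in mutants, 1 was higher and 6 did not pass. Of the brightest 50% of all genes, 26.6% were lower and 26.4% higher. The class had a median difference of -0.43. The largest fall was that of *Pnn*, which encodes pinin, a nuclear speckle protein that binds SR proteins and also associates with desmosomes. *Pnn* had log2 signals of 8.23 and 8.18 on the mutant arrays and 9.73 and 9.81 on the wild-type arrays. Both mutant values lay well below both wild-type values, and the difference was -1.57 (SE 0.08, adjusted p = 0.00248, limma). *Son*, the gene of a large scaffold protein of nuclear speckles, was lower by a smaller amount (-0.51, limma adjusted p = 0.0191), a call that was lost without mutant replicate 2 (adjusted p = 0.0958).

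Among the 10 *Srsf* genes, 5 were lower by limma (brightest 50% of all genes, 26.6% lower and 26.4% higher). None was higher by limma or at an unadjusted p under 0.05, and 1 was by SAM. *Srsf11* had log2 signals of 8.94 and 8.95 in mutants and 10.17 and 10.06 in wild type. The mutant arrays nearly coincided and were below both wild-type arrays (difference -1.17, SE 0.08, limma adjusted p = 0.00283). *Srsf1*, the founding SR protein, which binds purine-rich exonic enhancers, had 9.55 and 9.28 in mutants and 10.60 and 10.43 in wild type. The groups were separate although the mutant arrays differed from each other by more than the wild-type arrays did (difference -1.10, SE 0.13, limma adjusted p = 0.00533). *Srsf5* had 9.26 and 9.24 in mutants and 10.19 and 10.46 in wild type (difference -1.08, limma adjusted p = 0.00473). *Srsf10*, whose product represses splicing when it loses its phosphates, had 10.69 and 10.70 in mutants and 11.49 and 11.63 in wild type. Its difference was -0.86 (SE 0.09, limma adjusted p = 0.00453), with no overlap between genotypes. On its other, much dimmer probe set the difference was -0.65 (limma adjusted p = 0.0141). *Srsf3*, the gene of the smallest SR protein, was lower by 0.61 on its brightest probe set (limma adjusted p = 0.0129, and 0.0742 without mutant replicate 2), and its other probe sets are described further on.

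The remaining *Srsf* genes did not pass the test. *Srsf2*, which encodes the speckle protein SC35, differed by -0.35 (95% interval -0.64 to -0.06, limma adjusted p = 0.0627), *Srsf6* by -0.26 (-0.48 to -0.04) and *Srsf12* by -0.27 (-0.55 to 0.00). For all 3 of them both mutant arrays were nevertheless below both wild-type arrays. *Srsf4* and *Srsf9* both differed by 0.14, and the arrays of the genotypes overlapped for *Srsf9*.

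*Srrm1* was the one gene of this class that was higher in mutants. Its product, SRm160, is an SR-related coactivator that bridges enhancer-bound SR proteins and the basal machinery. *Srrm1* had log2 signals of 11.12 and 11.17 in mutants and 10.59 and 10.53 in wild type. The mutant arrays were above both wild-type arrays and each pair lay close together (difference 0.59, SE 0.08, limma adjusted p = 0.00772). The call was lost without mutant replicate 2, at an adjusted p of 0.0567. *Srrm2*, which encodes its partner SRm300, had 12.47 and 12.49 in mutants and 12.27 and 12.23 in wild type, a difference of 0.23 that did not pass (limma adjusted p = 0.0726).

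The hnRNP genes were the class with the largest share of falls, 13 of 17 (76.5%), with a median difference of -0.69. The shares in the brightest 50% of all genes were 26.6% lower and 26.4% higher. None of the 17 was higher by limma or at an unadjusted p under 0.05, and 1 was by SAM. *Hnrnpa2b1*, whose product packages nascent RNA, directs RNA transport and reads methylated adenosine, had 9.68 and 9.67 in mutants and 11.27 and 11.25 in wild type. Within each genotype the arrays almost coincided, and the gap between genotypes was -1.59 (SE 0.08, limma adjusted p = 0.00244). *Hnrnpd*, which encodes AUF1, a binder of AU-rich elements that regulates mRNA decay, had 9.61 and 9.81 in mutants and 11.02 and 11.08 in wild type (difference -1.34, SE 0.10, limma adjusted p = 0.00295). *Hnrnpr*, whose product binds mRNA in neurons and other cells, had 8.18 and 7.92 in mutants and 9.28 and 9.31 in wild type. Both genes showed no overlap between genotypes, and *Hnrnpr* differed by -1.25 (SE 0.11, limma adjusted p = 0.00371).

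The measured genes of the H/F family, whose products bind runs of guanines near splice sites, were all lower on their brightest probe sets. Those of *Hnrnph2* and *Hnrnpf* stood among genes of other chromosomes, as described further on. *Hnrnph1* had 10.59 and 10.65 in mutants and 11.63 and 11.79 in wild type (difference -1.09, SE 0.09, limma adjusted p = 0.00349). The X-linked *Hnrnph2* had 8.33 and 8.23 in mutants and 9.55 and 9.82 in wild type (difference -1.41, SE 0.12, limma adjusted p = 0.00335). *Hnrnpf* fell less, by 0.47 (limma adjusted p = 0.0123). Of its 4 probe sets 3 passed, and the dimmest did not (difference -0.17, limma adjusted p = 0.132). The calls of *Hnrnph1* and *Hnrnph2* held when any 1 array was left out, whereas that of *Hnrnpf* held in 2 of the 4 fits.

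The other hnRNP genes that passed ran from -1.01 to -0.39. *Hnrnpm* (-1.01), *Hnrnpu* (-0.93), whose product is a nuclear scaffold attachment factor, and *Hnrnpa0* (-0.85) were lower with limma adjusted p-values of 0.00365, 0.00356 and 0.00699 and kept their calls without any 1 array. *Hnrnpul2* (-0.69), *Hnrnpll* (-0.64), a regulator of *Ptprc* splicing in lymphocytes, *Hnrnpdl* (-0.46) and *Hnrnpab* (-0.39) were also lower. These calls were lost in at least 1 such fit, with the highest adjusted p-values at 0.0598 without mutant replicate 1 for *Hnrnpul2*, and at 0.0528, 0.0795 and 0.183 without mutant replicate 2 for *Hnrnpll*, *Hnrnpdl* and *Hnrnpab*.

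Of the hnRNP genes, 4 did not pass. *Hnrnpl*, which binds CA repeats, had 10.97 and 10.99 in mutants and 11.05 and 10.84 in wild type. Its mutant arrays lay between the wild-type arrays, and the 95% interval of the difference, -0.23 to 0.29, leaves out a change of the size seen for *Hnrnpa2b1*. *Hnrnpc*, which binds uridine tracts, had 9.10 and 8.84 in mutants and 8.89 and 9.15 in wild type, with an interval of -0.41 to 0.31. *Hnrnpk* differed by -0.11 (-0.31 to 0.09) and *Hnrnpul1* by 0.15 (-0.08 to 0.38). Related genes thus gave different values in these data, with *Hnrnpul2* at -0.69 and *Hnrnpul1* at 0.15, and with *Hnrnpll* at -0.64 and *Hnrnpl* at 0.03; the differences between them were not tested.

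The core factors were called in both directions, more often lower. Of the 26, 13 were lower, 4 were higher and 9 did not pass, with a median difference of -0.31. In the brightest 50% of all genes 26.6% were lower and 26.4% higher. The share of higher core genes was thus below that background. All 4 that were higher encode subunits of SF3a or SF3b. Of these, *Sf3b4* was not called on the probe set among genes of its own chromosome (difference 0.33, limma adjusted p = 0.208). Without mutant replicate 2, 8 core genes were lower and 1 higher, and without mutant replicate 1, 1 was higher.

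Within SF3b, *Sf3b6* showed the largest difference of all 57 genes. Its product, p14, contacts the branch-site adenosine. *Sf3b6* had log2 signals of 6.87 and 6.53 on the mutant arrays and 8.38 and 8.59 on the wild-type arrays. The mutant arrays differed from each other by more than the wild-type arrays did, yet both were far below them (difference -1.78, SE 0.15, limma adjusted p = 0.00332). *Phf5a*, another small SF3b subunit that belongs to the list of other spliceosome genes, had 9.15 and 8.91 in mutants and 10.09 and 10.58 in wild type, and was lower by 1.30 (limma adjusted p = 0.00882). It was picked out after its values had been seen.

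*Sf3b4* and *Sf3b3* differed in the other direction. *Sf3b3*, which encodes a large propeller-shaped scaffold subunit, had 11.36 and 11.38 in mutants and 10.91 and 10.92 in wild type. The arrays within each genotype nearly coincided (difference 0.46, SE 0.08, limma adjusted p = 0.0126), but the call was lost without mutant replicate 1 (adjusted p = 0.0706) or without mutant replicate 2 (0.0787). *Sf3b4*, an RNA-binding subunit of SF3b, had 8.78 and 8.77 in mutants and 8.03 and 7.73 in wild type (difference 0.89, SE 0.12, limma adjusted p = 0.0077). This value comes from the brighter of its probe sets. On the other, *Sf3b4* had 6.61 and 6.33 in mutants and 6.36 and 5.92 in wild type, with overlap between genotypes and no call (difference 0.33, limma adjusted p = 0.208).

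*Sf3b1*, the largest subunit, which clasps the branch helix, differed by -0.19 (95% interval -0.42 to 0.04) and *Sf3b5* by -0.23 (-0.51 to 0.04), neither past the test. *Sf3b2* was lower by 0.36 (limma adjusted p = 0.0345), a call that was lost when any 1 array was left out. In SF3a, which tethers SF3b to the rest of the U2 snRNP, *Sf3a3* had 9.57 and 9.51 in mutants and 10.16 and 10.39 in wild type (difference -0.73, limma adjusted p = 0.00895). *Sf3a1* had 10.19 and 10.25 in mutants and 9.88 and 9.72 in wild type (difference 0.42, adjusted p = 0.0253), and *Sf3a2* had 10.30 and 10.27 in mutants and 9.75 and 9.92 in wild type (difference 0.45, adjusted p = 0.0218). The transcripts of the 3 subunits of this trimer thus gave calls in both directions, and the differences between them were not tested. Protein was not measured here. All 3 calls were lost in at least 1 fit without an array, *Sf3a3* without mutant replicate 2 (adjusted p = 0.0577), and *Sf3a1* and *Sf3a2* in 3 of the 4 fits. *Sf3a1* was also not called after each array was scaled to a common median.

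**Figure D3:**
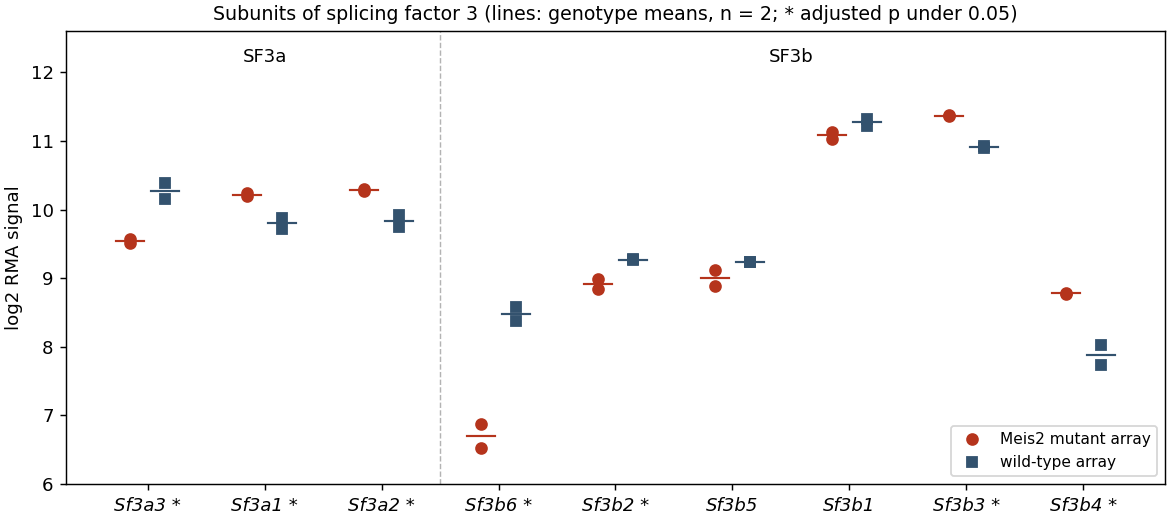
Log2 signals of the SF3a and SF3b subunit genes on the 4 arrays (circles, *Meis2* mutant; squares, wild type; lines, means of each genotype, n = 2), read at each gene's brightest probe set. An asterisk marks an adjusted p under 0.05. *Sf3b6*, *Sf3b2* and *Sf3a3* were lower in mutants, *Sf3a1*, *Sf3a2*, *Sf3b3* and *Sf3b4* were higher, and signals of different genes cannot be set against each other.

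Of the 12 *Prpf* genes, 6 were lower and none was higher by limma (brightest 50% of all genes, 26.6% and 26.4%). At an unadjusted p under 0.05, 1 was higher, and 2 were by SAM. *Prpf38b* had 8.02 and 8.13 in mutants and 9.54 and 9.34 in wild type (difference -1.36, SE 0.11, limma adjusted p = 0.00306). *Prpf38a*, a component of the precatalytic complex, had 8.57 and 8.33 in mutants and 9.56 and 9.53 in wild type (difference -1.09, SE 0.11, adjusted p = 0.00429). *Prpf39*, the counterpart of a yeast U1 snRNP protein, had 7.32 and 7.18 in mutants and 8.22 and 8.30 in wild type (difference -1.01, SE 0.09, adjusted p = 0.00365). In all 3 genes the genotypes were fully separate on the arrays. *Prpf4b*, which encodes a kinase that phosphorylates tri-snRNP proteins, was lower by 0.80 (adjusted p = 0.00481), and *Prpf18*, a factor of the second catalytic step, was lower by 0.73 (adjusted p = 0.00616).

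The structural proteins of the tri-snRNP gave 1 call. Of *Prpf3*, *Prpf4*, *Prpf6*, *Prpf8* and *Prpf31*, only *Prpf3* passed the limma test (difference -0.50, adjusted p = 0.0114, and 0.071 without mutant replicate 2). *Prpf8*, the protein at the heart of the spliceosome, had 11.93 and 11.93 in mutants and 11.71 and 11.52 in wild type, a difference of 0.31 that missed the threshold (limma adjusted p = 0.0613). *Prpf4* had 8.76 and 8.72 in mutants and 8.62 and 8.72 in wild type (difference 0.07, 95% interval -0.15 to 0.28). *Prpf6* differed by -0.25 and *Prpf31* by -0.10, and the arrays of the genotypes overlapped for both. *Prpf19*, the ubiquitin ligase that helps activate the spliceosome (-0.20), and *Prpf40b* (0.15) did not pass either.

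Of the 5 *Rbm* genes, 4 were lower (brightest 50% of all genes, 26.6% lower and 26.4% higher). *Rbm17*, which encodes SPF45, a factor that helps select the 3′ splice site, had 8.11 and 7.999 in mutants and 9.17 and 9.49 in wild type, with no overlap (difference -1.27, SE 0.13, limma adjusted p = 0.00446). *Rbm39*, a coactivator related to U2AF, had 10.12 and 10.12 in mutants and 10.73 and 10.80 in wild type (difference -0.64, limma adjusted p = 0.00634). *Rbm5* was lower by 0.56 and *Rbm25* by 0.40 on its brightest probe set, and both calls were lost without mutant replicate 1 (adjusted p = 0.0558 and 0.0986). *Rbm22*, which contacts the catalytic RNA, differed by 0.14 (95% interval -0.07 to 0.34). No *Rbm* gene was higher by limma or at an unadjusted p under 0.05, and 1 was by SAM.

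Several probe sets read 8 of the 57 genes. No gene had probe sets that passed the test in opposite directions, and over all 71 probe sets 44 were lower and 5 higher (all probe sets of the array, 15.7% and 21.6%). The sizes could differ widely within a gene. *Srsf3* differed by -0.61 and -0.44 on its brighter probe sets. On the dimmest it had 6.90 and 6.49 in mutants and 9.09 and 9.26 in wild type, a difference of -2.48 (SE 0.16, limma adjusted p = 0.00272). *Rbm25* differed by -0.40 and -0.80 on a pair of its 4 probe sets. On another it had 7.79 and 8.19 in mutants and 10.18 and 10.29 in wild type (difference -2.24), and on the last 6.63 and 6.98 in mutants and 9.26 and 9.25 in wild type (difference -2.46, SE 0.13, limma adjusted p = 0.00257). *Srsf5* (-1.08 and -1.05) and *Hnrnph2* (-1.41 and -1.37) gave nearly the same difference on both of their probe sets. *Hnrnpk* passed only on the dimmest of its 3 (-0.34, limma adjusted p = 0.0394). The per-array values of *Srsf3* and *Rbm25* were picked out after they had been seen.

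The order of the probe set identifiers bears on which of these signals belongs to the gene itself. Identifiers on this array follow the chromosomes. For 99.8% of 18862 genes with 1 probe set, most of the 10 nearest identifiers were those of genes on the gene's own chromosome, and this held for all 49 splicing genes with 1 probe set. It held for only 12 of the 22 probe sets of the other 8 genes, and the brightest probe set stood so in 1 of the 8, *Rbm25*. The brightest probe set of *Srsf3*, a gene of chromosome 17, stood among genes of chromosome 3, whereas the one that differed by -2.48 stood among genes of chromosome 17. The *Sf3b4* probe set that was higher in mutants stood among genes of chromosome 15, and the one with no call among genes of chromosome 3, where *Sf3b4* lies. Whether the 10 probe sets that stood elsewhere read near-identical copies elsewhere in the genome was not tested. The values of the 7 genes that hold such probe sets are therefore uncertain (*Hnrnpf*, *Hnrnph2*, *Hnrnpk*, *Sf3b4*, *Srsf10*, *Srsf3* and *Srsf5*). All 4 probe sets of *Rbm25* stood among genes of chromosome 12, where the gene lies, and why their differences are unequal was not tested. With each of the 8 genes read on the brightest probe set that stands among genes of its own chromosome, 33 of the 57 genes were lower and 4 higher, with *Sf3b4* the one call lost.

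**Figure D4:**
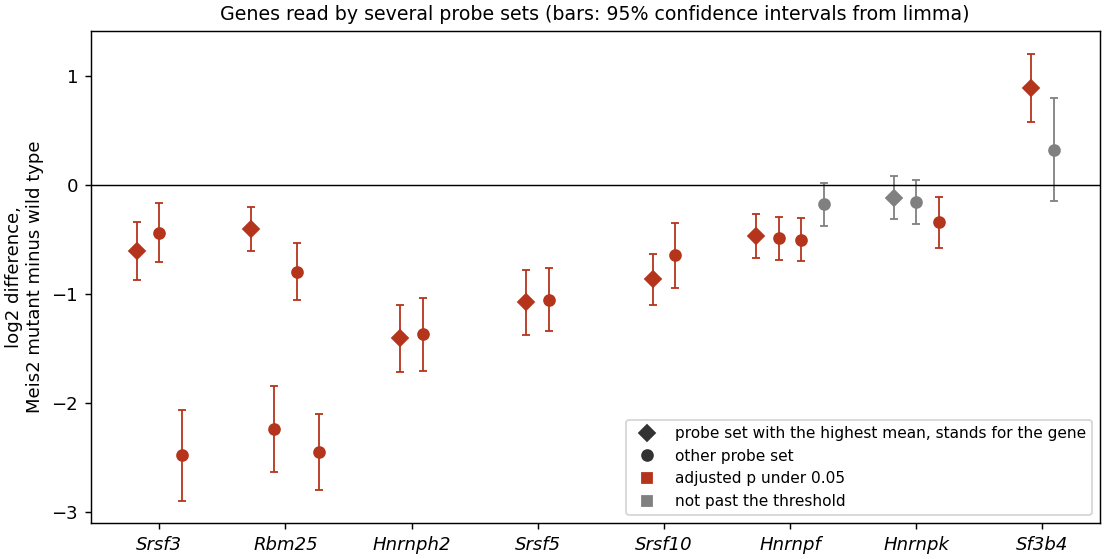
Difference (mutant minus wild type, log2 scale) of every probe set of the 8 genes that several probe sets read, with 95% intervals from the limma fit. *Srsf3* and *Rbm25* span over 2 log2 units between their probe sets (2.05 each), and *Srsf5* (0.02) and *Hnrnph2* (0.04) almost none.

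Some genes of the same class or complex were called in opposite directions, and the promoters of such pairs are given here as a description. The calls of *Srrm1* and *Sf3b3* were lost without mutant replicate 2. Whether promoter bases bear on the directions was not tested. The 250 bases before the start of *Pnn* (chr12:59066669-59066918, plus strand) and *Srrm1* (chr4:135353147-135353396, minus strand), both SR-related, and of *Sf3b6* (chr12:4817358-4817607, plus strand) and *Sf3b3* (chr8:110846804-110847053, minus strand), both of SF3b, are printed 5′ to 3′ from RefSeq (GRCm38.p6). Capitals mark every match, on either strand, of CCGGAAG (the core of ETS-family sites), CCAAT (the NF-Y box), GGGCGG (the GC box of Sp factors) and TGACAG (the core bound by Meis and related homeodomain factors).
Pnn promoter: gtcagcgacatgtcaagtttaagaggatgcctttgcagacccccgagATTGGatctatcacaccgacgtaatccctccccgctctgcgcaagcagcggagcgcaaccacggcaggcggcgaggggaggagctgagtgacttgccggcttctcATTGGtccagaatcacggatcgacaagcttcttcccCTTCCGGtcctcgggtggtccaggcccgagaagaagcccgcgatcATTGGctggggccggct
Srrm1 promoter: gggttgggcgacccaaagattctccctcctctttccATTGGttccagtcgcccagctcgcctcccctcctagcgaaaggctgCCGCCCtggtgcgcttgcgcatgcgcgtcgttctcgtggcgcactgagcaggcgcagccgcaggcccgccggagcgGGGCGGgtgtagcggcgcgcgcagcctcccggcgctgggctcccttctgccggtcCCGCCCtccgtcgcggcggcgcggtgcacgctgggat
Sf3b6 promoter: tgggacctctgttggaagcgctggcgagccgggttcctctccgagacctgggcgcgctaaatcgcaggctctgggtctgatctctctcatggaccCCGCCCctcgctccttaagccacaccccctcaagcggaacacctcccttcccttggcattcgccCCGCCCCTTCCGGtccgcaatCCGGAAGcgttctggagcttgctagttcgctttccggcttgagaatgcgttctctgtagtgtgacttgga
Sf3b3 promoter: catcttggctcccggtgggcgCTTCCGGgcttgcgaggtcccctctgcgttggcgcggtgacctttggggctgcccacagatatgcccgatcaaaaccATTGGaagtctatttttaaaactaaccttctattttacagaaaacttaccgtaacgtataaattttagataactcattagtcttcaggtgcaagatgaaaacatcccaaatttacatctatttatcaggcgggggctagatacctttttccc
The *Pnn* promoter held 3 CCAAT boxes and 1 CCGGAAG, and that of *Srrm1* held 1 CCAAT and 3 GGGCGG. The *Sf3b6* promoter held 2 CCGGAAG and 2 GGGCGG, and that of *Sf3b3* 1 CCGGAAG and 1 CCAAT. None of the 4 held TGACAG. The study reported a Meis2 binding site in the vicinity of *Pnn*, found by chromatin immunoprecipitation and sequencing in an otic cell line. It named *Pnn* among the few genes with such a site that were also differentially expressed in these mutants. Its authors caution that the cell line might not be an ideal model of the inner ear in vivo. Most of the study's Meis2 sites lay far from the closest transcription start. A window of 250 bases without TGACAG therefore does not bear on binding elsewhere.

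RefSeq gave 69 promoters for 51 of the 57 genes, and 32851 in all. CCGGAAG was present in 27.5% of the splicing promoters and 6.91% of all promoters, GGGCGG in 58.0% and 32.7%, CCAAT in 50.7% and 33.8%, and TGACAG in 11.6% and 15.9%. Split by the call of the gene, CCGGAAG was in 30.2% of 43 promoters of genes that were lower, in 3 of the 4 of genes that were higher and in 13.6% of the 22 of genes that did not pass. TGACAG was in 9.3% of the promoters of genes that were lower, in none of the 4 of genes that were higher and in 18.2% of those that did not pass. The other 7 of the 11 motifs searched were TGATNNAT and its form TGATTGAT (letters known from Pbx and Hox cofactor sites), the TATA box TATAAA, the YY1 core AAGATGG, the E-box CACGTG, and the cyclic AMP response element TGACGTCA and its variant TGACGTAA, again on both strands. Each was in 0 to 7.25% of the splicing promoters and in 0.447 to 12.4% of all. TGACGTAA was in 3 of the 69 splicing promoters (4.35%), all of genes that were lower, and in 0.447% of all promoters. The median promoter GC content was 60.8% for genes that were lower, 64.6% for those that were higher and 61.6% for those that did not pass, and the median gene span was 17.8, 22.2 and 18.2 kb. Over all protein-coding genes these medians were 52.4% and 17.1 kb, so the splicing promoters were richer in GC than the promoters with which the motif shares are compared. A match of letters is a description of the window and not a measured binding site.

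The wider splicing machinery was read from 4 further lists. In the brightest 50% of all genes 26.6% were lower and 26.4% higher (limma), and among all genes 16.2% and 24.2%. Of 51 other spliceosome genes measured, 28 were lower and 6 higher, with a median difference of -0.46. *Luc7l3*, a U1-associated SR-like gene, had 8.89 and 8.77 in mutants and 10.36 and 10.34 in wild type (difference -1.52, limma adjusted p = 0.0026), and *Cwc22*, which loads the exon junction complex, was lower by 1.04 (limma adjusted p = 0.00362). Among the 6 that were higher were *Snrnp200* (0.44, limma adjusted p = 0.0195) and *Eftud2* (0.39, limma adjusted p = 0.0232), the helicase and the GTPase that sit with Prpf8 in the U5 snRNP. Both were picked out after their values had been seen.

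Most genes of the kinases and phosphatases that act on SR proteins were lower as well. Of 7 kinase and phosphatase genes measured, 5 were lower and none higher by limma, while 2 were higher at an unadjusted p under 0.05 and by SAM. The list is small, and in the brightest 50% of all genes 26.6% were lower and 26.4% higher by limma. *Clk4* had 8.93 and 8.73 in mutants and 9.98 and 9.95 in wild type (difference -1.13, limma adjusted p = 0.0036). *Srpk1*, the main cytoplasmic SR kinase, had 9.82 and 9.92 in mutants and 10.52 and 10.61 in wild type, and *Clk1* and *Srpk2* were lower by 0.74 and 0.84. *Clk3* and *Srpk3* differed by 0.26 and 0.23 and did not pass.

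Of 39 other splicing regulators, 17 were lower and 6 higher (brightest 50% of all genes, 26.6% and 26.4%), and the median difference was -0.06. The falls included *Tardbp* (TDP-43, -1.38), *Bclaf1* (-1.32), *Tra2a*, a partner of SR proteins (-1.19), and *Matr3* (-1.12), with limma adjusted p-values of 0.00402, 0.00272, 0.00302 and 0.00381. *Ptbp1*, which represses neuronal exons in non-neural cells, had 12.58 and 12.52 in mutants and 11.86 and 11.69 in wild type and was higher by 0.77 (limma adjusted p = 0.00643; picked out after its value had been seen). In 13 genes of the exon junction complex and nonsense-mediated decay the calls were divided, with 4 lower and 3 higher and a median of 0.07, shares close to those of the brightest 50% of all genes (26.6% and 26.4%). *Eif4a3* (-1.03) and *Rbm8a* (-0.87), which encode core subunits of that complex, and *Upf2* (-0.85) were lower, and *Rnps1*, whose product binds pinin, was higher (0.54, limma adjusted p = 0.0089).

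**Figure D5:**
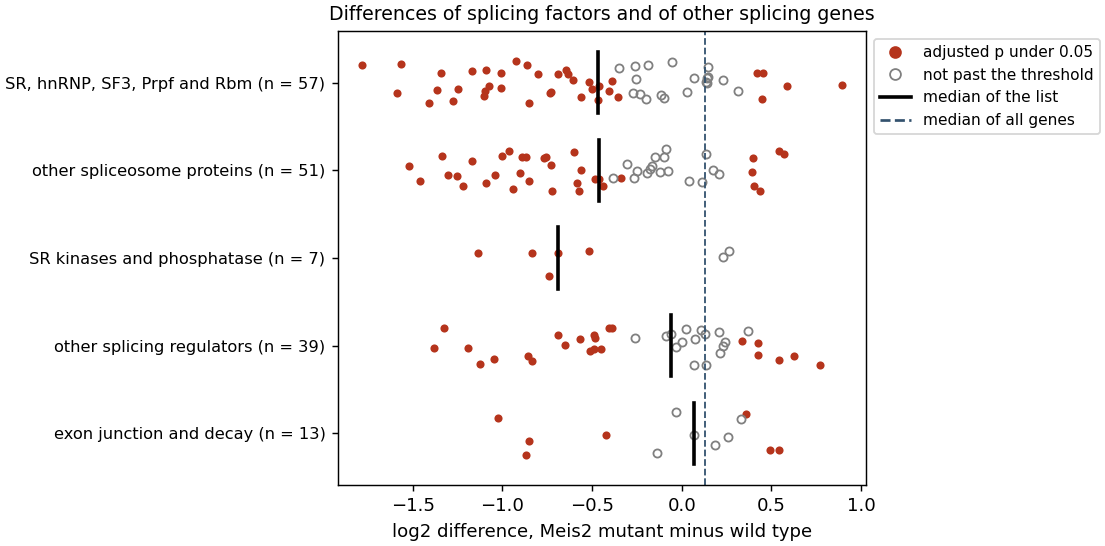
Differences (mutant minus wild type, log2 scale) of the 57 genes and of the genes in the 4 further splicing lists, with 1 point per gene (filled, adjusted p under 0.05), the median of each list as a bar and the median of all genes as a dashed line. The medians run from -0.69 (SR kinases and phosphatase) to 0.07 (exon junction and decay genes), against 0.13 over all genes.

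Other features of the arrays moved with genotype. The median signal of the 57 genes was 9.70 and 9.81 on the mutant arrays and 10.19 and 10.39 on the wild-type arrays, while the median of all probe sets was 6.73 and 6.72 in mutants and 6.63 and 6.65 in wild type. The arrays correlated at 0.996 within mutants and 0.993 within wild type, and at 0.966 to 0.971 between genotypes. Among all genes, 16.2% were lower and 24.2% higher, which is the background for the marker counts that follow. Skeletal muscle markers were higher in mutants for 10 of 11 genes (mean signal 6.80 and 7.11 in mutants, 6.17 and 6.39 in wild type), and 6 of 9 markers of ganglion neurons were lower (8.49 and 8.44 in mutants, 9.25 and 9.36 in wild type). The muscle means lay under 7.4, the lower edge of the brightest 50% of genes. Their differences had a median of 0.535 and ran from 0.25 to 1.55. The 25% quartile of all probe sets was 5.22 and 5.22 in mutants and 5.10 and 5.11 in wild type. Whether this bears on the muscle counts was not tested. Of 12 cochlear epithelial markers 3 were lower and 3 higher (9.48 and 9.55 in mutants, 9.66 and 9.63 in wild type). The epithelial markers with the smallest p were *Epcam* (-0.90), *Sox2* (-1.94), *Pax2* (0.97) and *Fgf10* (-0.74). Of 8 cartilage markers 3 were higher and none lower by limma or at an unadjusted p under 0.05 or by SAM (mean signal 11.996 and 11.94 in mutants, 11.67 and 11.57 in wild type). Glial markers were lower for 2 and higher for 1 of 5 genes, periotic mesenchyme markers lower for 2 and higher for 1 of 8, hair cell markers lower for 1 and higher for 3 of 8, and erythroid markers lower for 1 and higher for 3 of 5. Of 7 macrophage and 7 endothelial markers, 1 each was higher. All 3 Y-linked genes measured were lower in mutants, so that Y-linked signal was high on both wild-type arrays and low on both mutant arrays. *Xist* had 11.83 and 11.84 in mutants and 5.54 and 11.51 in wild type (replicates 2 and 3). Wild-type replicate 3 thus carried *Xist* together with Y-linked signal, as RNA of both sexes would. Its *Uty*, *Eif2s3y* and *Kdm5d* signals were 7.29, 7.77 and 7.57, against 4.52 to 5.57 on the mutant arrays. The sex of the embryos therefore differed between the arrays of the genotypes. The part of cell composition, of sex and of any handling that went with genotype in the differences above was not tested. In whole tissue fewer cells of a type and less RNA per cell cannot be told apart.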

How the data were processed

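RNA of whole E15 cochleas was extracted with a column kit, amplified, labeled and hybridized to Affymetrix Mouse Gene ST arrays, 2 of *Meis2* mutants and 2 of wild type. The deposited log2 values are signals that the authors computed with RMA (background correction, normalization within and between arrays, 1 signal per probe set); the submitters' notes name mm8 as build. Raw scans were not used, so the normalization could not be repeated, and the number of arrays limits the precision.

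Differences were fitted with limma 3.58.1 in R 4.3.3 (lmFit and eBayes, no filter, no covariate), and p-values were adjusted by Benjamini-Hochberg over 35556 probe sets, with 0.05 as the limit. The test named in the study's methods, SAM, was rebuilt as an alternative, with all 6 relabelings of the arrays. Probe sets were named through the platform annotation (21789 with 1 symbol, 1621 with several, 12146 with none). A gene was read at its brightest probe set (mean of all arrays). The script was tested on simulated data. Genes named with full values were, per class, up to 5 that were lower and up to 2 that were higher with the largest differences past the threshold and no overlap, and the 3 with the smallest absolute differences; for the further lists, up to 4 with the smallest p. Array values of *Srrm2*, *Sf3a1*, *Sf3a2*, *Sf3a3*, *Prpf8* and *Rbm39* were added after they had been seen. The splicing genes, lists and rules were chosen with earlier results of these data known. The alternatives tried are given in the closing section. Promoters (RefSeq, GRCm38.p6) were searched over 250 bases.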

Additional observations from a re-analysis of the deposited data

How the results depend on the processing

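Over the fits that left out 1 array each, 22 to 32 of the 57 genes were lower and 1 to 5 were higher, and the median difference ran from -0.49 to -0.45. Of the 38 genes called, 22 kept the call in all 4 of these fits and all 38 kept their sign. The number of genes that were higher was 11 with SAM and 2 at an adjusted p of 0.01. SAM as run here called 25225 probe sets, against 13268 with limma, with 19.4% of all probe sets lower and 51.6% higher. The study, which also used SAM, reported far fewer differentially expressed transcripts, the great majority of them lower in mutants. Its methods do not give the cutoff or the SAM settings, so these counts do not reproduce its list.

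Under the other alternatives (a trended or robust prior, scaling to a common median, a further quantile normalization, a dim filter that left 17778 probe sets, 1-symbol probe sets, and averaging a gene's probe sets), 31 to 35 genes were lower and 4 to 7 higher. Among all calls the share of lower ones was 42.0%, 56.0% with median scaling and 47.5% with quantile normalization. Among calls of the splicing genes it was 86.8%, 89.7% and 81.6%. The calls that no longer passed were *Sf3a1* with median scaling, and *Hnrnpab* and *Sf3b2* with quantile normalization; the cause was not tested. At an adjusted p of 0.01 (limma), 26 of the 38 calls passed, 24 of them lower. Over all probe sets, 7.63% were lower and 6.06% higher at that limit. The 12 that did not were *Hnrnpab*, *Hnrnpdl*, *Hnrnpf*, *Hnrnpul2*, *Prpf3*, *Rbm25*, *Sf3a1*, *Sf3a2*, *Sf3b2*, *Sf3b3*, *Son* and *Srsf3*.

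Over all alternatives 4 of the 57 genes changed sign in any of them, none of them called: *Hnrnpl* was -0.0527 and *Prpf4* -0.0159 with median scaling, *Hnrnpc* was 0.0235 with quantile normalization, and with 1 array left out *Hnrnpl* ran from -0.07 to 0.14 and *Hnrnpc* from -0.18 to 0.08. Without wild-type replicate 3 these were -0.0734 and 0.0765, *Hnrnpc* was 0.0789 without mutant replicate 2, and *Srsf9* was -0.0439 without mutant replicate 1.

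Alternatives chosen with the data in view were the probe set with the lowest mean of a gene (33 lower, 4 higher), the probe set among genes of its own chromosome (33 and 4) and leaving out the 8 genes with several probe sets (27 and 4 of 49). Under the first of these *Sf3b4* and *Hnrnpf*, and under the second *Sf3b4*, no longer passed. No paired analysis was possible because no label pairs mutant with wild-type arrays.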
